A study of Mus musculus with 8 samples.

Results

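A set of 10 genes that mark mast cells and basophils were followed through single-cell RNA libraries of mouse 4T1 tumours: Cpa3, Mcpt4, Mcpt8, Cma1, Tpsb2, Tpsab1, Ms4a2, Fcer1a, Kit and Gata2. The 10 were chosen by name and all were found among the 17580 gene identifiers of the library tables. The deposited expression table, which holds 6933 genes, listed 9 of them and not Kit. Of the 654 cells that the authors annotated, 7 held 10 or more summed raw counts of the 10 genes. All 7 carried the deposited label Macrophages, held chymase and tryptase counts of mast cells and had 0 to 5 counts of 15 macrophage genes. Barcodes with a basophil-like profile were found in addition, all outside the annotated set.

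The 4T1 line is a mouse mammary carcinoma line, here injected under the skin of Balb/c mice and grown for 10 days. Pieces of tumour, 6 per pool and from different mice, were digested for 1 h with a Bacillus licheniformis protease at 5 mg/ml, in 4 groups: at 37C with no inhibitor, at 37C with inhibitor, at 4C with no inhibitor and at 4C with inhibitor. The inhibitor was actinomycin D, which blocks transcription, at 2 nM. All groups shared the tumour, the strain, the protease and the time, and the 37C and 4C digestions ran on different instruments, so instrument and temperature cannot be told apart. Each group was 1 suspension split into aliquots A and B, each made into a SureCell 3′ library on the ddSEQ droplet system. The annotated cells numbered 99 to 115 and summed to 158314 to 199929 UMIs per library at 37C, and 34 to 74 cells and 23212 to 65149 UMIs at 4C. A p-value over the 8 libraries therefore measures the spread between aliquots, with no spread between independent suspensions.

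Mast cells are tissue-resident cells that store proteases, histamine and heparin in granules and release them when antigen crosslinks IgE bound to its high-affinity receptor. Basophils are short-lived blood granulocytes that carry the same receptor, store histamine and are a source of IL-4 early in type 2 responses. The protease content separates them in mice: connective-tissue mast cells hold chymases, tryptases and carboxypeptidase A3, whereas basophils hold the protease encoded by Mcpt8.

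All gene positions are on GRCm38. The chymase-family genes lie together on chromosome 14: Cma1 at 55941451 to 55944675, Mcpt4 at 56059629 to 56062313 and Mcpt8 at 56082166 to 56085273. The tryptase genes Tpsab1 (25343245 to 25345562) and Tpsb2 (25366305 to 25369098) are neighbours on chromosome 17. Cpa3 lies on chromosome 3 (20215620 to 20242181), Fcer1a on chromosome 1 (173221284 to 173227214), Ms4a2 on chromosome 19 (11615523 to 11623719), Kit on chromosome 5 (75574916 to 75656722) and Gata2 on chromosome 6 (88193891 to 88207032). The proteases are related in sequence, and reads that fit more than 1 of them could be assigned wrongly. The 5 serine protease transcripts compared (Mcpt4, Mcpt8, Cma1, Tpsb2 and Tpsab1) were 57.3% to 70.3% identical over their aligned bases. The closest pair was Tpsb2 and Tpsab1, at 70.3% overall and 75% over the last 300 bases of each, from which 3′ reads arise.

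Gata2 encodes a transcription factor that binds GATA motifs and is required in both lineages. RefSeq promoters (GRCm38.p6) were matched for 8 of the 10 members, not for Tpsb2 and Tpsab1, and were searched on both strands for the motif AGATAA, then the motif TGATAA, then the motif AGATAG and then the motif TGATAG, from 250 bases before to 50 after the start. The 8 members have 10 promoters in the table, and 5 of the 10 held a match (those of Cpa3, Mcpt4, Cma1, Ms4a2 and Fcer1a), against 29.8% of 32851 promoters of the same length. No match was found in those of Mcpt8, Kit and Gata2. The 250 bases before the start are given for Cpa3 (chr3:20242182-20242431), Ms4a2 (chr19:11623720-11623969) and Fcer1a (chr1:173227230-173227479), all on the minus strand and written 5′ to 3′ along the gene, because these 3 genes belong to both lineages and were found together in 5 of the 7 cells described next. Capitals mark the matches, AGATAA or, for a match on the opposite strand, its complement; they are letters in a window and not measured sites.
Cpa3: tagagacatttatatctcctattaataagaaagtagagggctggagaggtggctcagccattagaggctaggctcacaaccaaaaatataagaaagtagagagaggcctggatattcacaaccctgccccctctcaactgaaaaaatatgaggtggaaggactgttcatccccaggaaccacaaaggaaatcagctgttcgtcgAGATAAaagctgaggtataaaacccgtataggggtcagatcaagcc
Ms4a2: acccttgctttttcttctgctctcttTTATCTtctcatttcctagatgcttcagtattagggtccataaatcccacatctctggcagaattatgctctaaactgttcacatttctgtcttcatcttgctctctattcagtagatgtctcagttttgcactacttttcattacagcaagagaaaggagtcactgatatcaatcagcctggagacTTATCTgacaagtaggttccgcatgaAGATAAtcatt
Fcer1a: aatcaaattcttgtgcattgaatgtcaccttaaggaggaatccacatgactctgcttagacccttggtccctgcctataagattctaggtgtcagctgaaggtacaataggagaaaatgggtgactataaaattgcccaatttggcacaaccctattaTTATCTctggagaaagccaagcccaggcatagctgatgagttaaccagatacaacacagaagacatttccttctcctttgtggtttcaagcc
The match nearest the start was 46 bases before it in Cpa3, 11 in Ms4a2 (with further matches at 37 and 224) and 92 in Fcer1a.

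The counts of the 10 genes were held by very few cells. Of 2676 counts in annotated cells, 2608 (97.46%) lay in the 7 cells. The 7 held 99 to 768 counts each, and the annotated cell with the next highest number held 7, so a minimum of 20 would have chosen the same cells. No count of the 10 genes was found in 603 annotated cells, and 44 held 1 to 7. In the 7 cells the 10 genes took 8.557% to 26.35% of all UMIs (unique molecules counted).

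**Figure D1:**
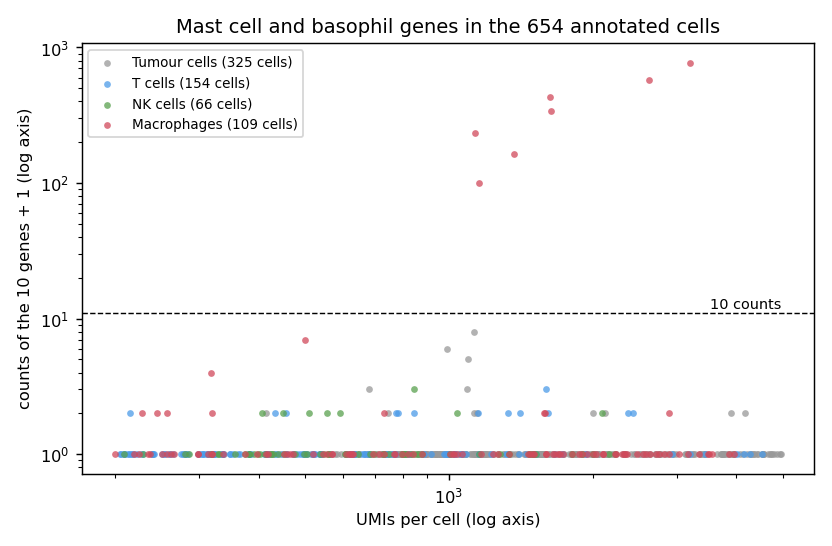
Summed raw counts of the 10 genes plus 1 (y, log axis) against UMIs per cell (x, log axis) for the 654 annotated cells, coloured by deposited label. The 7 cells above the dashed line at 10 counts are all labelled Macrophages and hold 99 to 768 counts, while the next cell holds 7.

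The 7 cells came from 4 of the 8 libraries. There were 2 of the 7 in 37C no inhibitor A, 1 in 37C no inhibitor B, 2 in 37C with inhibitor A and 2 in 4C no inhibitor A. None was found in 37C with inhibitor B, 4C no inhibitor B or either library of 4C with inhibitor. This was 2.02%, 0.8696%, 1.869% and 0% of the annotated cells in the 4 warm libraries, and 3.39%, 0%, 0% and 0% in the 4 cold ones. The exact 95% interval of 1 library reached from 0.2456% to 7.108% (2 of 99 cells) and of another from 0.4132% to 11.71% (2 of 59). The libraries with none allowed up to 2.679% (112 cells), 4.054% (74 cells), 8.824% (34 cells) and 5.556% (54 cells). The limits of the 3 libraries at 4C lie above every share seen, so a share like theirs could not be told from none at this depth. The intervals and limits cover counting error only. The mean was 1.19% ± 0.9432 at 37C and 0.847% ± 1.695 at 4C (SD, n = 4 libraries each; difference 0.342 percentage points, two-sided exact permutation p = 0.829). The ranges overlapped, and both cells at 4C came from 1 library.

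The pair of cells in 37C with inhibitor A had nearly the same barcode and the same genes. The barcodes of 18 bases differ at 1 position, A2T counted from the 5′ end, which is written in capitals below because it is the only base that separates them.
larger cell: aAatatgagcttatactt
smaller cell: aTatatgagcttatactt
The first 6 bases of the larger cell's barcode begin 162 of the listed barcodes and those of the smaller cell's begin 5. The smaller cell held 1133 UMIs and the larger 2622. Of the 664 genes of the smaller cell, 596 (89.76%) were also in the larger, and the 2 count profiles differed by less than their sampling noise (chi-square divided by its degrees of freedom, 0.4346). The other 20 pairs of the 7 cells gave 1.508 to 5.602 and differed at 9 or more bases of the barcode. Counted once, the pair leaves 6 cells, with a mean share of 0.958% in the warm and 0.847% in the cold libraries (exact permutation test, p = 1.0). In the whole series 64 pairs of listed barcodes within a library were 1 base apart, 19 of them with both annotated. No barcode of the 7 cells was found in another library. In the series 318 barcode sequences were in more than 1 library, and 1 sequence was annotated in more than 1 library.

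The label Macrophages was checked against 15 macrophage genes. In the 7 cells 13 of the 15 were at 0, among them Lyz2, Csf1r, Cd68, Adgre1, C1qa, C1qb, C1qc and Mrc1. The remaining 2 were Apoe, with 5 counts, and Ctsb, with 7. The list summed to 0 to 5 counts per cell (0.942 per 1000 UMIs) in the 7, against a median of 36 and a highest of 265 (41.32 per 1000 UMIs) in 101 other cells of the same label. A low sum was not particular to the 7. The lowest of the 101 was 0, in 4 cells, and 1 cell of 1869 UMIs in 37C with inhibitor A held 4 counts. Markers of neutrophils, eosinophils, B cells, fibroblasts, endothelium and tumour epithelium were at 0 in all 7. However, only 3 of the 9 eosinophil, 8 of the 10 neutrophil and 5 of the 6 endothelial genes were in the library tables. The T cell list gave 4 counts, all Cd3e, and the NK cell list 8, all Gzmb, which encodes granzyme B. The list for group 2 innate lymphoid cells gave 17 counts (1.334 per 1000 UMIs, against 0.01479 in the other macrophages), 15 of Il1rl1 and 2 of Il13, which the mast cell and basophil lists also hold, and its other 5 genes were at 0. The erythroid and progenitor list gave 3 counts and the dendritic list 1.

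**Figure D2:**
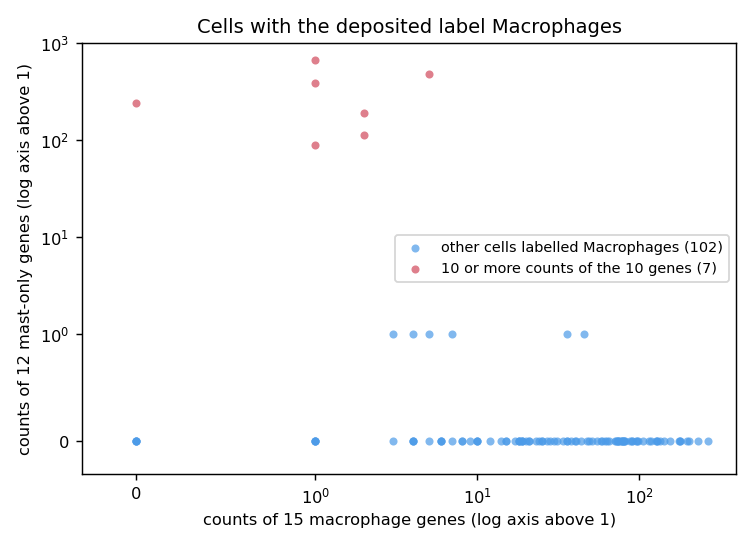
Counts of the mast-only list (y) against the macrophage list (x) for the 109 cells labelled Macrophages, 1 point per cell, both axes linear below 1 and logarithmic above. The 7 cells lie at 0 to 5 macrophage counts, and the other 102 hold at most 1 mast-only count.

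The 7 cells touch values computed for that label. With the 7 included, the share labelled Macrophages was 21.31% ± 6.911 (37C) and 7.454% ± 4.915 (4C), and without them it was 20.12% ± 6.69 and 6.606% ± 3.637 (SD, n = 4 libraries each). In 4C no inhibitor A they were 2 of 8 cells so labelled and held 51.18% of their UMIs. In the other libraries with such cells they held 5.489% to 17.89%.

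Tpsab1 was the most abundant member over the 7 cells, with 1038 counts, followed by Cma1 with 508 and Tpsb2 with 470. Tpsab1, which encodes the tryptase mMCP-7, had 393, 225, 19, 222, 97, 12 and 70 counts in the 7 cells, in the order 37C no inhibitor A (larger and smaller cell), 37C no inhibitor B, 37C with inhibitor A (larger and smaller) and 4C no inhibitor A (larger and smaller). Tpsb2, which encodes mMCP-6, had 142, 69, 21, 110, 35, 83 and 10 in the same order. All 7 cells held both, but in unequal proportion: Tpsab1 made 47.5% to 76.53% of the tryptase counts in the 5 cells at 37C, and 12.63% and 87.5% in the 2 cells at 4C. These 2 cells, from 1 library, bracket all others.

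Cma1, the gene of the chymase mMCP-5, was in all 7 cells with 101, 76, 33, 106, 42, 124 and 26 counts. It exceeded both tryptases in the cell of 37C no inhibitor B and in the larger cell of 4C no inhibitor A. Mcpt4, the gene of the chymase mMCP-4, had 26, 6, 6, 28, 9, 21 and 0. Cpa3, which encodes carboxypeptidase A3, had 77, 39, 9, 83, 33, 85 and 18. The cell with no Mcpt4 was the smaller one of 4C no inhibitor A, which also had the fewest Tpsb2 and Cma1 counts.

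Mcpt8, the basophil protease gene, separated that same cell from the rest. It had 37 counts there, against 0, 0, 0, 0, 1 and 2 in the others. The cell held 1366 UMIs, fewer than the 1636 of the other cell of its library, and 70 Tpsab1, 26 Cma1 and 18 Cpa3 counts beside the Mcpt8. Its 164 member counts thus include proteases of both lineages. Whether it was 1 cell or more in a droplet was not tested.

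The IgE receptor genes were at lower counts. Fcer1a, which encodes the IgE-binding chain, had 21, 7, 3, 17, 8, 7 and 1. Ms4a2, the receptor's beta chain, had 4, 3, 2, 7 and 5 in the cells at 37C and 0 in both at 4C. Kit, the stem cell factor receptor on which mast cells depend, had 1, 1, 4, 1, 1, 0 and 1. Gata2 was in every cell, with 3, 3, 2, 4, 2, 3 and 1. At these depths a 0 for Ms4a2 or Kit cannot be told from a low level.

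**Figure D3:**
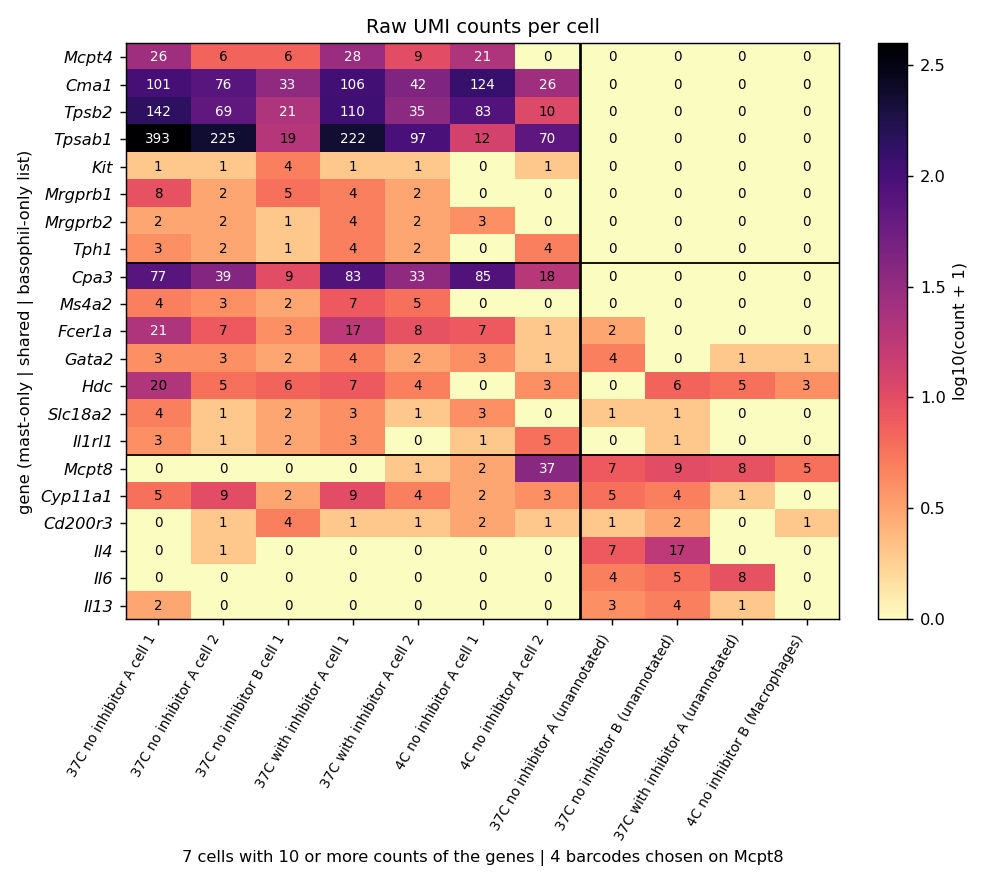
Raw counts (printed, shaded by log10(count + 1)) of mast-only, shared and basophil-only genes (rows, separated by lines) in the 7 cells and, right of the heavy line, in the 4 barcodes chosen on Mcpt8. Tryptases, Cma1 and Cpa3 fill the left block, and the 3 unannotated barcodes on the right hold Il6 and Il13, with Il4 in 2 of them.

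List genes that the choice of cells did not use were present from both lineages. The mast-only list has 7 genes besides the members, and 5 were present, with 59 counts in the 7 cells and 1 count in the other 647 annotated cells. They were Mrgprb1 (21 counts) and Mrgprb2 (14), receptors of the mast cell Mas-related family, Tph1 (16), the serotonin-synthesising tryptophan hydroxylase, Mcpt2 (6) and Tpsg1 (2). Mcpt1 was at 0, and Mcpt9 was not in the library tables. The cells held 14, 11, 7, 13, 6, 3 and 5 counts of these 7 genes.

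The basophil-only list has 8 genes besides Mcpt8, and 5 were present with 48 counts in the 7 cells and 95 in the other 647. Of the 95, 71 were Il13, in 8 cells, while Cyp11a1 gave 7 and Cd200r3 gave 5. The 7 cells held 7, 11, 6, 10, 5, 4 and 5 counts of the 8 genes, equal to or above the non-member mast-only counts in 3 of the cells. Cyp11a1, the side-chain cleavage enzyme of steroid synthesis, gave 34 of them and was in 7 of 7 cells. Cd200r3, an activating receptor, gave 10 in 6 cells. The others were Il13 with 2 counts, and Il4 and Il3ra with 1 each. The second basophil protease gene, Prss34, was at 0, as were Itga2 and Il6, and only 1 Prss34 count existed in all 23980 listed barcodes. Cyp11a1 and Cd200r3 were thus not confined to Mcpt8-bearing cells here. With the members included, the mast-only list summed to 2180 counts and the basophil-only list to 88, but most of the former are the proteases that chose the cells. The cells are called mast cell-like from those proteases. By sums alone the non-member genes of both lists did not tell the lineages apart in them, with 59 mast-only and 48 basophil-only counts. The non-member mast-only genes had no count in the 4 barcodes chosen on Mcpt8 (described below), while Cyp11a1 and Cd200r3 were in both sets. In the smaller cell of 4C no inhibitor A the basophil-only sum was the highest of the 7, at 42, of which 37 were Mcpt8.

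Genes of both lineages were present throughout. All 10 of the shared list had counts. Hdc, which makes histamine, had 20, 5, 6, 7, 4, 0 and 3 counts. Slc18a2, which loads amines into granules, had 14 counts in 6 cells. Il1rl1, the IL-33 receptor, had 15 in 6 cells, and Csf2rb and Csf2rb2, beta chains of the IL-3 receptor family, had 7 and 10. In the other 647 annotated cells Hdc had 17 counts, Slc18a2 0, Il1rl1 22, Csf2rb 70 and Csf2rb2 24. The 6 non-member genes of the list together had 105 counts in the 7 cells and 135 in 72 of the others.

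Ranked by their level in the 7 cells over that in the other 647 annotated cells, the 15 leading genes that were not members were led by Serpinb1a, a granule protease inhibitor (52 counts in 7 cells, 8 in the others), Ctsg, the protease cathepsin G (26 in 6 cells, 2 in the others), and Mrgprb1. The next were Cyp11a1, Tph1, Hdc, Slc18a2 and Mrgprb2. Alox5, the first enzyme of leukotriene synthesis, had 14 counts in 6 cells and 2 in the others. Hs3st1, a heparan sulfate sulfotransferase, had 9 counts against 0, and Papss2, which makes the sulfate donor, had 7 against 1. Creb3l1, a transcription factor of the secretory pathway, had 9, and Slco2b1, an organic anion transporter, had 10, of which 5 and 4 were in 2 cells. Cd200r3 and P2rx1, an ATP-gated channel with 7 counts, completed the 15. This ranking describes the cells and is no test, since the cells were chosen by expression.

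Likeness across cells gave nearly the same names. Over the 654 cells, the genes whose ln(1 + counts per 10000) followed that of the summed members most closely were Mrgprb2 (Pearson r = 0.665), Slc18a2 (0.661), Cyp11a1 (0.659), Tph1 (0.655), Ctsg (0.625), Mrgprb1 (0.601), Serpinb1a (0.593), Hdc (0.581), Creb3l1 (0.576) and the adenosine receptor gene Adora3 (0.54), out of 10613 genes compared. Each r rests on 5 to 19 cells with a count, the points share libraries and depth, and it is a description.

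Signalling genes downstream of the receptor were sparse. Of 20 such genes 14 had a count, 74 in all (5.809 per 1000 UMIs, against 5.649 in the 101 other cells labelled Macrophages). Those with at least 5 were Fcer1g, the receptor's gamma chain (19), Inpp5d, the inhibitory phosphatase SHIP1 (13), Lat2 (11) and Lat (9), adaptors, and Grb2 (5). Fcer1g is not particular to these cells, with 481 counts in those macrophages. Lyn and Syk, the kinases that start the signal, had 2 counts each, and Plcg1 and Plcg2 none.

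Of 18 granule and mediator genes 15 had counts, 323 in all (25.36 per 1000 UMIs, against 9.338). Srgn, the granule proteoglycan core protein, gave 120, in the amounts 32, 8, 4, 31, 15, 26 and 4. Cd63, a granule membrane protein, gave 28 and was in every cell. Ndst2, an enzyme of heparin synthesis, gave 7 in 3 cells. For lipid mediators Alox5 had 14 counts, Hpgds, which makes prostaglandin D2, had 3, and Ltc4s and Ptgs2 had none.

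Among 15 regulators 11 had a count but only Gata2 reached 5, with 18. Mitf, the mast cell regulator, had 1 count, Gata1 1, Tal1 2 and Erg 2. Spi1, Cebpa, Lmo2 and Ikzf1 had none. Of 16 cytokine genes 8 had a count. Ccl2, a monocyte attractant, had 14, 1, 23, 6, 3, 1 and 0, and Ccl7, a related chemokine, 1, 4, 13, 5, 0, 0 and 0. Ccl4 had 10 counts, 8 of them in the cell of 37C no inhibitor B. That cell had the fewest member counts of the 7, at 99, and the most of all 3 chemokines.

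Basophils were searched for by Mcpt8 without mast cell proteases. In all 23980 barcodes, 4 held at least 5 Mcpt8 counts and none of Mcpt4, Cma1, Tpsb2 and Tpsab1. This criterion was set after the values were seen; no such barcode held 3 or 4, and 59 held 1 or 2. Of the 4, 3 were unannotated: 1 in 37C no inhibitor A (1305 UMIs), 1 in 37C no inhibitor B (1073 UMIs) and 1 in 37C with inhibitor A (847 UMIs). The other was labelled Macrophages, in 4C no inhibitor B (501 UMIs). None had Cpa3, Kit or Ms4a2, and only the first had Fcer1a, with 2 counts.

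The 3 unannotated barcodes held 6, 6 and 4 of the 9 basophil-only genes, Mcpt8 included, and are called basophil-like. Il4, the cytokine for which basophils are best known, had 7, 17 and 0 counts. Il6 had 4, 5 and 8, and Il13 had 3, 4 and 1. Cyp11a1 had 5, 4 and 1. In the third barcode, of 37C with inhibitor A, the name rests mainly on Mcpt8 (8 counts), which chose it, and Il6. That barcode had no Il4 or Cd200r3 count and 1 each of Il13 and Cyp11a1, so its name is the least certain. The criterion itself set the mast-only genes Mcpt4, Cma1, Tpsb2 and Tpsab1 to 0 in these 3 barcodes. The other mast-only genes had no count in them either, and the macrophage list had 0, 1 and 0. The barcode labelled Macrophages had Mcpt8 (5), Cd200r3 (1), Hdc (3), Csf2rb (3) and Gata2 (1), only 2 basophil-only genes in all and 1 macrophage count (Adgre1), and is left unnamed.

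Cytokine genes set the basophil-like barcodes apart from the 7 mast cell-like cells. Ccl3 had 95, 124 and 24 counts and Ccl4 106, 166 and 30, against 1 and 10 in the 7 cells together. Those single barcodes held 38.62%, 57.67% and 30.38% of all Ccl3 counts of their libraries, and 30.2%, 40.0% and 22.9% of all Ccl4. Csf2, which encodes GM-CSF, had 2, 36 and 0, and Osm 11, 2 and 5, with none in the 7. Ccl2 and Ccl7, by contrast, had 48 and 23 counts in the 7 cells and none in the 4 barcodes. The genes that chose either set were not these, but with 1 barcode per library no test was made.

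**Figure D4:**
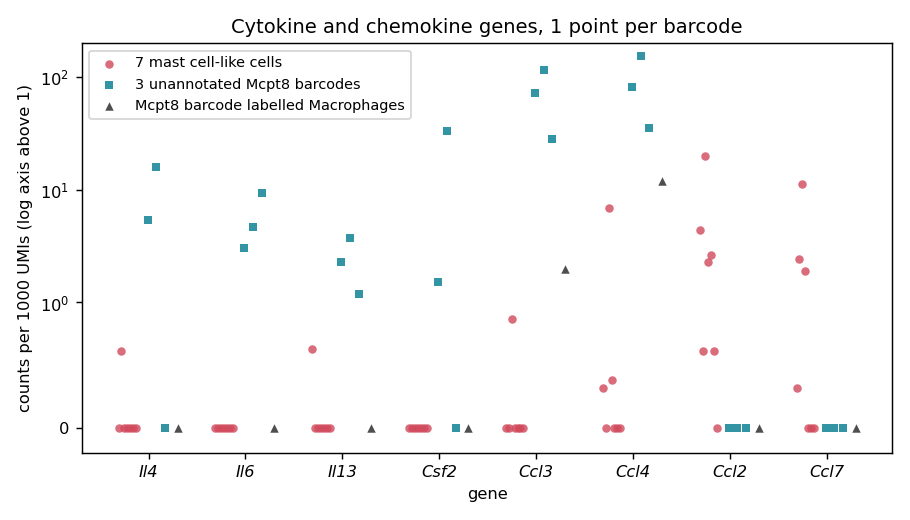
Counts per 1000 UMIs (y, linear below 1 and logarithmic above) of 8 cytokine and chemokine genes, 1 point per barcode. The 3 unannotated Mcpt8 barcodes lie highest for Ccl3 and Ccl4 and at 0 for Ccl2 and Ccl7, which 6 and 4 of the 7 mast cell-like cells hold.

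Member counts also lay outside the annotated cells, 1211 in all among 23326 unannotated barcodes. Of these barcodes 11 held 10 or more, 1 of them a basophil-like barcode. Of the other 10, 7 had only 109 to 180 UMIs but 10 to 36 member counts, 8.333% to 22.5% of their UMIs. In barcodes this small a minimum of 10 counts itself sets a high share. Their share therefore cannot be compared with that of the annotated mast cell-like cells. The 7 small barcodes lay in 5 libraries, 1 of them at 37C and 6 at 4C, and both libraries of 4C with inhibitor held 1 (36 and 20 counts). The remaining 3 had 764 to 1367 UMIs, of which 0.7315% to 4.507% were member counts, and all were in 37C with inhibitor B. They also held 5 to 14 macrophage counts. So the 3 libraries at 4C with no annotated mast cell-like cell did hold small barcodes with 10 or more of these counts. The 3 barcodes of 37C with inhibitor B had lower shares of them than any of the 7 cells.

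Low counts were spread widely. Between 1 and 9 member counts were found in 787 unannotated barcodes, 680 of them with exactly 1. In barcodes under 200 UMIs (median 26) the members took 123.1 counts per 100000 UMIs, with the small barcodes of 10 or more counts included. In annotated cells other than the 7 they took 4.808 in tumour cells (median 1359 UMIs), 11.54 in T cells (503.5), 17.38 in NK cells (599) and 12.52 in the other macrophages (1021.5). The share of cells with any member count was 4.0%, 8.442%, 12.12% and 9.804%. Of these counts Tpsab1 gave 14 of 28 in tumour cells, 6 of 14 in T cells and 5 of 9 in NK cells, and Kit gave 4 in T cells. The source of these counts was not tested.

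Summed over all barcodes, the 10 genes took 2920, 655.4, 1125 and 671.5 counts per 1000000 UMIs in the libraries at 37C (no inhibitor A and B, with inhibitor A and B). At 4C, in the same order, they took 4677, 1204, 1005 and 916.1. Every library therefore held their RNA, and the 5 libraries with 1 or no mast cell-like cell lay between 655.4 and 1204. The library 37C with inhibitor A, with 2 such cells, lay in that range too, at 1125. In sums over a library, fewer cells of a type and less RNA per cell cannot be told apart.

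**Figure D5:**
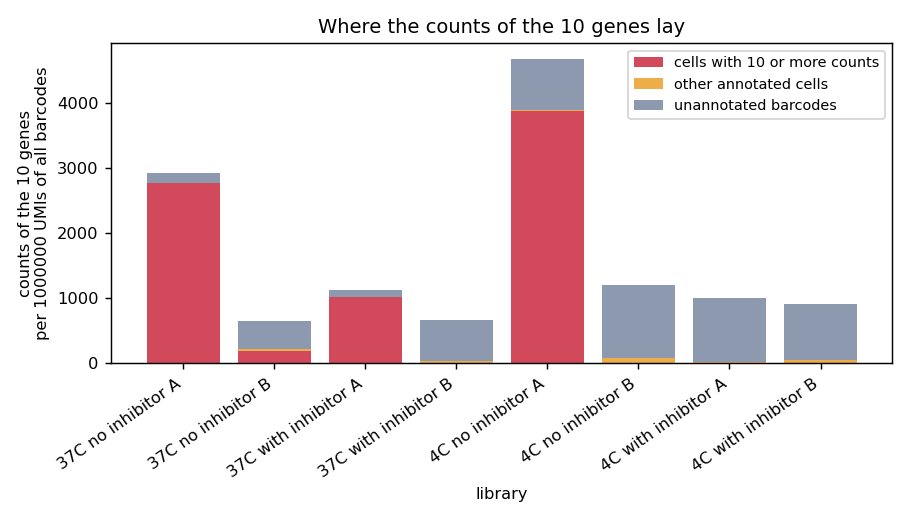
Counts of the 10 genes per 1000000 UMIs of all barcodes (y) in each library (x), stacked by where the counts lay. The bar of 4C no inhibitor A reaches 4677, mostly from 2 cells, and in 4 libraries nearly all counts lie in unannotated barcodes.

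Restricted to annotated cells, aliquots of the same suspension differed far more than this. The members took 7580 and 686.6 counts per 1000000 UMIs in 37C no inhibitor (A and B), 4076 and 127.7 in 37C with inhibitor, 9540 and 230.2 in 4C no inhibitor and 43.08 and 90.21 in 4C with inhibitor. Tpsab1 had 619 and 28, 321 and 13, 82 and 4, and 0 and 0 counts in these libraries. Cma1 had 178 and 34, 148 and 1, 151 and 2, and 1 and 0. Library A was higher than B in 3 of the 4 suspensions, those in which A held 2 of the 7 cells. The groups overlapped between temperatures.

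Of the 10 genes, 6 passed the filter on low counts (Cpa3, Fcer1a, Cma1, Tpsab1, Tpsb2 and Mcpt4), and Mcpt8, Ms4a2, Kit and Gata2 did not. With edgeR's quasi-likelihood test and Benjamini-Hochberg adjustment over 3391 genes, 0 of the 6 were called between 37C and 4C, where 3.98% of all tested genes were. The lowest adjusted p was 0.0979, for Tpsab1, the only member with an unadjusted p under 0.05, and DESeq2's Wald test also called 0. Other settings did call members, each given here with its background. A block for the letter A or B called 2 of 6 (4.60%), aliquots summed 1 of 6 (1.89%) and no filter 5 of 10 (2.02%). For temperature without inhibitor 0 of 6 were called (background 1.06%), 0 of them with an unadjusted p under 0.05. For temperature with inhibitor it was 0 of 6 (background 1.80%), with 2 under 0.05 unadjusted. For the inhibitor at 37C it was 0 of 6 (background 1.21%), with 0 under 0.05 unadjusted.

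For the inhibitor at 4C, 0 of 6 were called and 0.00% of all genes were. Unadjusted, 172 of the 3391 genes had a p under 0.05, among them 5 of the 6 members (Cpa3, Cma1, Tpsab1, Tpsb2 and Mcpt4), and DESeq2's Wald test called 0 genes, with 71 under 0.05 unadjusted. No fitted fold change is given, because 4C with inhibitor held at most 1 count of each of the 6 per library. The direction there was set by the library that held the 2 cells, 4C no inhibitor A.

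The calls rest on single libraries, and each is given with the background share of all genes called in the same fit. For temperature averaged over inhibitor, without 4C no inhibitor A, which held both cells at 4C, all 6 members were called higher at 37C (background 3.33%). Without 4C no inhibitor B (background 3.33%), and likewise without 37C with inhibitor B (background 4.77%), Tpsab1 and Tpsb2 were called higher and Mcpt8 lower. Without 37C no inhibitor B (background 3.32%) Tpsab1 alone was called higher, and without 37C with inhibitor A (background 6.06%) Mcpt8 alone was called lower. Without the cells themselves no member passed the filter.

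For temperature without inhibitor, leaving out any library gave at least 1 call, and the direction turned with the library. Without 4C no inhibitor A, Cma1, Cpa3, Tpsab1 and Tpsb2 were called higher at 37C (background 0.951%). Without 4C no inhibitor B, Cma1, Cpa3 and Mcpt8 were called lower (0.707%). Without each of the other 6, Mcpt8 alone was called lower: 37C no inhibitor A (1.28%) or B (0.956%), 37C with inhibitor A (2.41%) or B (2.36%), and 4C with inhibitor A (0.766%) or B (0.924%). The annotated Mcpt8 counts at 4C without inhibitor were 39 and 5, and at 37C without inhibitor 0 and 0. Mcpt8 did not pass the filter with all 8 libraries, and every call of it with a library left out kept 4C no inhibitor A. There 37 of the 39 counts lay in 1 cell, so these calls are not separate observations.

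For temperature with inhibitor, all calls were higher at 37C. Tpsab1 was called without 37C no inhibitor A (2.81%) or B (2.49%), joined by Cma1, Cpa3 and Tpsb2 without 37C with inhibitor B (2.57%), and by these and Mcpt4 without 4C no inhibitor A (2.80%) or B (2.68%). For the inhibitor at 37C, Tpsab1 was called lower with inhibitor without 4C no inhibitor A (1.94%) or B (1.95%), and Cma1, Tpsab1 and Tpsb2 without 37C with inhibitor A (1.66%). For the inhibitor at 4C, Cma1, Cpa3, Tpsab1 and Tpsb2 were called lower without 37C with inhibitor A (0.249%) or B (0.249%), and these with Mcpt4 and Mcpt8 without 4C no inhibitor B (0.202%).

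Some genes of the wider lists differed with temperature, and most of their counts lay outside the 7 cells. In the comparison of 37C with 4C, in which 3.98% of all 3391 tested genes were called, 9 of the 20 receptor signalling genes were tested, of which Fcer1g was called higher and Lat lower at 37C. Of 18 granule and mediator genes 9 were tested and 3 were called higher (Ptgs2, Srgn and Vamp8). Of 16 cytokine genes 7 were tested and 3 were called higher (Ccl2, Ccl7 and Ccl9). None of the 4 tested mast-only genes, the 4 shared genes or the 6 regulators was called, and no basophil-only gene passed the filter. The median log2 fold change was 0.16, 0.35 and 1.79 in the first 3 of these lists, beside 0.04 over all tested genes. Of 15 macrophage genes, whose cells were more frequent at 37C, 13 were tested and 11 were called higher; their part in these calls was not tested. The 7 cells held 120 of 1511 annotated Srgn counts, 19 of 585 Fcer1g counts and 9 of 98 Lat counts.

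In the deposited expression table, on its natural log scale of counts per 10000 (1 added), the 7 cells had 4.402 to 7.29 for Tpsab1, 4.38 to 6.326 for Tpsb2, 5.328 to 6.727 for Cma1, 4.44 to 6.35 for Cpa3 and 2.185 to 4.361 for Fcer1a. Mcpt8 was at 0 in 4 of them and at 2.368, 2.67 and 5.679 in the others. The deposited values were 1.028 to 1.205 times counts per 10000 of all UMIs, a factor that varied by cell. On this scale the cell highest in Cpa3 and Cma1 was the larger cell of 4C no inhibitor A, at 6.35 and 6.727.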

How the data were processed

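Single-cell RNA was measured in 8 droplet libraries, 2 aliquots of each of 4 suspensions. Per the submitters' processing notes, which name the build GRCm38, the authors' tools were Seurat, SAMtools, STAR 2.7.1a, UMI-tools and featureCounts 1.6.0, with no settings. How cells were filtered, doublets handled and cell types named was not given in the sources used here, and no doublet caller was run. The deposited library tables hold raw counts (UMIs per gene and barcode, 2990 to 3000 barcodes each). The deposited expression table is on a natural log scale, ln(1 + counts per 10000): 99.9864% of its values above 0 were proportional to the raw counts within a tolerance of 0.001, with a factor per cell of 1.028 to 1.205 against counts per 10000 of all UMIs. Library and cell type came from the deposited annotation of 654 cells. Symbols were matched for 17520 of 17580 identifiers, 12505 with the same version.

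The members and gene lists were chosen with earlier results of these data known. Named genes were all members, the 15 non-members with the largest (CPM + 10) ratio between the 7 cells and the other annotated cells (at least 5 counts in at least 3 cells), list genes with at least 5 counts, and the 10 with the highest correlation to the summed members. Genes named at lower counts, the Mcpt8 criterion and the pair of barcodes were chosen after their values were seen.

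Raw counts were summed over annotated cells (23212 to 65149 UMIs per library at 4C, 158314 to 199929 at 37C), filtered by filterByExpr, scaled by TMM and fitted with 4 groups in edgeR 4.0.16 (R 4.3.3; two-sided, Benjamini-Hochberg, adjusted p under 0.05). Shares of cells were compared by exact permutation over 70 arrangements, with aliquots treated as independent, and have exact (Clopper-Pearson) 95% intervals; a share of 0 allows 3 counts of the total. The fit was tested on simulated data. Alternatives were DESeq2 1.42.0, other filters, other sets of cells, a replicate block and leaving out each library.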

Additional observations from a re-analysis of the deposited data

Results flagged for a closer look

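The library 4C no inhibitor A stood apart from the other 3 libraries at 4C in 10 measures. Its share of annotated cells with 10 or more member counts was 3.39%, where the other 3 had 0%. Per 1000000 UMIs of its annotated cells, counts were 1972 for Cpa3, 398.3 for Mcpt4, 739.7 for Mcpt8, 2864 for Cma1, 1764 for Tpsb2, 1555 for Tpsab1, 151.7 for Fcer1a, 18.97 for Kit and 9540 for all members together. All rest on the same 2 cells, so they are 1 observation. At 37C, Mcpt8 in 37C with inhibitor A, at 10.0 counts per 1000000 UMIs (2 counts), was the only library above 0. The rule used flags about 1 in 20 groups of 4 by chance where values are normally spread, and 24 groups were looked at. A group with counts in only 1 library is always flagged, so that rate does not hold for these sparse counts.

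Signal of these genes was also present in barcodes that the annotation leaves out. The 3 basophil-like barcodes held 27 (37C no inhibitor A), 41 (37C no inhibitor B) and 18 (37C with inhibitor A) counts of the basophil-only list, and 11 unannotated barcodes held 10 or more member counts. Why these barcodes were not annotated was not tested.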

How the results depend on the processing

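Counts of calls are given for 5 contrasts in this order: temperature averaged, temperature in the untreated groups, temperature in the inhibitor groups, and the inhibitor in the warm and then in the cold groups. edgeR called 135, 36, 61, 41 and 0 genes, of which 0 were members in each. Without a filter it called 293, 85, 135, 75 and 11 genes, which is 2.02%, 0.586%, 0.930%, 0.517% and 0.0758% of 14517, and 5, 2, 5, 1 and 6 of 10 members. With at least 10 counts it called 279, 87, 147, 91 and 11 (3.05%, 0.95%, 1.6%, 0.993% and 0.120% of 9162) and the same numbers of members. In both, for temperature averaged, Cma1, Cpa3, Tpsab1 and Tpsb2 were higher and Mcpt8 lower at 37C. In the untreated groups only Tpsab1 was higher and Mcpt8 lower. In the inhibitor groups Cma1, Cpa3, Mcpt4, Tpsab1 and Tpsb2 were higher and Mcpt8 was not called. For the inhibitor every member called was lower with it. DESeq2's Wald test called 60, 22, 33, 8 and 0 genes and no member, and its size factors changed no count by over 1.5 times. With all listed barcodes 1290, 349, 795, 256 and 2 genes were called, and 2 of 8 members, for temperature in the untreated groups only (4.64% of 7515). With aliquots summed 89 genes were called for temperature, 1.89% of 4717, with 1 of 6 members, Tpsab1, among them (adjusted p = 0.0054). Without the 7 cells no member passed the filter. With the replicate block (letter A or B) edgeR called 156, 56, 73, 50 and 5 genes (4.60%, 1.65%, 2.15%, 1.47% and 0.147% of 3391), and 2, 1, 3, 1 and 4 of 6 members. The letters did not pair the libraries: the deviations of the A libraries from their group means correlated at -0.028 to 0.239 between groups. Leaving out each library in turn gave 80 to 198, 23 to 58, 10 to 165, 15 to 116 and 0 to 12 genes, and 0 to 6, 1 to 4, 0 to 5, 0 to 3 and 0 to 6 members; the lone library of a group is then assumed to vary like the others. Why the calls differ was not tested; in several of these settings other genes were tested. The difference in the share of cells at or over the minimum (37C minus 4C) was 0.342 percentage points and -0.11 with a minimum of 5 counts, where it turned. Without 1 library it ranged from 0.0598 to 1.19, highest without 4C no inhibitor A (exact permutation p = 0.143). No alternative passed 0.05. The pair of barcodes counted once was chosen after seeing the data and left all calls of members as they were. Depth limits all of this: 7 cells carry nearly all counts.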
